A study of Mus musculus with 7 samples.

Results

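Gata2 and Gata1 encode the 2 GATA factors that act in turn in blood cell development, and both loci were examined for sites occupied by HA-tagged GATA2 and by the HA-tagged variant 9aa-Ins in CUT&Tag, in which an antibody directs a transposase to cut and tag the DNA around a bound protein. The members were 2 of the 21938 protein-coding genes annotated, and their peaks were all listed peaks with the summit inside the gene or within 150 kb of its annotated start. By this rule 12 of the 6254 peaks of the GATA2 list belonged to the loci, 8 at Gata2 and 4 at Gata1. Of the 1079 peaks of the 9aa-Ins list, 0 belonged to either locus.

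The cells (hi-77-/-) were progenitors from mouse fetal liver that estrogen-regulated Hoxb8 had immortalized and that were grown with β-estradiol. Both groups carried the homozygous deletion of the Gata2 -77 enhancer, so that no group with this enhancer was compared. One group received a retrovirus with HA-GATA2 cDNA and the other a retrovirus with HA-9aa-Ins cDNA, in which amino acids were inserted into the spacer between the zinc fingers, and live GFP+ cells were sorted after 3 days. Each list combined 2 anti-HA replicates that came from 1 pool of cells, and the occupying protein was therefore the introduced one, at the level that the retrovirus gave. No replicate values were in the lists, and no SD or test could be computed. The lists hold no expression values, and the cell type could not be checked against marker genes.

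GATA factors bind WGATAR on either strand, which stands for AGATAA or AGATAG and for TGATAA or TGATAG. In progenitors GATA2 is known to act at its own gene through distal and intronic elements, among them the -77 and +9.5 enhancers, which are named by their distance in kb from the start and are needed for normal fetal hematopoiesis. During erythroid differentiation GATA1 replaces GATA2 on such elements and Gata2 is shut off, a change called the GATA switch. Gata1 itself is controlled through DNase I hypersensitive sites named HS1, HS2 and HS3, of which HS1 is an upstream hematopoietic enhancer, HS2 is a promoter-proximal element with adjoining GATA sites and HS3 is intronic. +9.5 and many other GATA2 elements pair WGATAR with an E-box, CANNTG, the site of the TAL1 and LYL1 partners of GATA2.

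The GATA motifs under the peaks at the known enhancers are shown because the rest of the results turn on these elements. Capitals mark WGATAR and, where it stands 6 to 14 bp before WGATAR, the E-box. TTATCA is TGATAA read on the opposite strand. The sequences are from the GRCm38 reference and are given in the order -3.9 kb and +9.5 of Gata2, then HS1 and the promoter peak of Gata1.
Gata2 -3.9 kb, chr6:88189775-88189834, plus strand: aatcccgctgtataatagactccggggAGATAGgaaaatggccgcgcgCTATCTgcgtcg
Gata2 +9.5, chr6:88203165-88203224, plus strand: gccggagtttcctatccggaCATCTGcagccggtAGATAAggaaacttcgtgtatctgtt
Gata1 HS1, chrX:7971467-7971527, plus strand: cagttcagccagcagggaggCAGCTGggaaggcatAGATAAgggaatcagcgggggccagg
Gata1 promoter, chrX:7968415-7968474, plus strand: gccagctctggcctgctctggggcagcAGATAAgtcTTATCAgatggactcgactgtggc

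A motif under each of the 3 highest peaks of Gata2, all distal, is shown for comparison. The peaks at -86.9 and +58.6 kb each held another WGATAR motif, 98 and 224 bp from the summit, which is not shown.
Gata2 -86.9 kb, chr6:88107073-88107132, minus strand: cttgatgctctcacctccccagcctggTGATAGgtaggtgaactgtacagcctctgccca
Gata2 +58.6 kb, chr6:88252537-88252596, plus strand: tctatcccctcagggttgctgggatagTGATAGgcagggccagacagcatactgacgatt
Gata2 +60.2 kb, chr6:88254172-88254230, minus strand: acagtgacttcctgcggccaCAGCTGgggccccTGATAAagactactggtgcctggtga

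Peak height is given as the pileup, which counts the reads that cover the summit and was recovered from the deposited fold enrichment. The background over the genome was 0.464 reads with GATA2 and 0.455 reads with 9aa-Ins, and the lowest pileup listed was 9 reads in each. Median pileups were 15 and 13 reads, respectively. Intervals below are exact 95% Poisson intervals of the pileup and cover counting error only, not the spread between cultures.

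GATA2 occupied both loci at several sites. At Gata2 (ENSMUSG00000015053.14, chr6:88193891-88207032, plus strand), the 8 peaks ranged from 10 to 33 reads with a median of 17.5, and together their summits were covered by 156 reads. At Gata1 (ENSMUSG00000031162.14, chrX:7959260-7978071, minus strand), the 4 peaks ranged from 10 to 21 reads with a median of 18. A GATA2 peak was in reach of 60.1% of protein-coding genes, and at least 4 were in reach of 19.1%. At least 8 were in reach of 4.36%. The median gene had 1 peak. Thus 95.6% of genes had fewer GATA2 peaks than Gata2 and 80.9% had fewer than Gata1. Chromosome X held 0.351 GATA2 peaks per Mb against 2.29 over all chromosomes, and on it 98.8% of genes had fewer peaks than Gata1. For Gata2 the corresponding share on chromosome 6 was 98.6%.

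**Figure D1:**
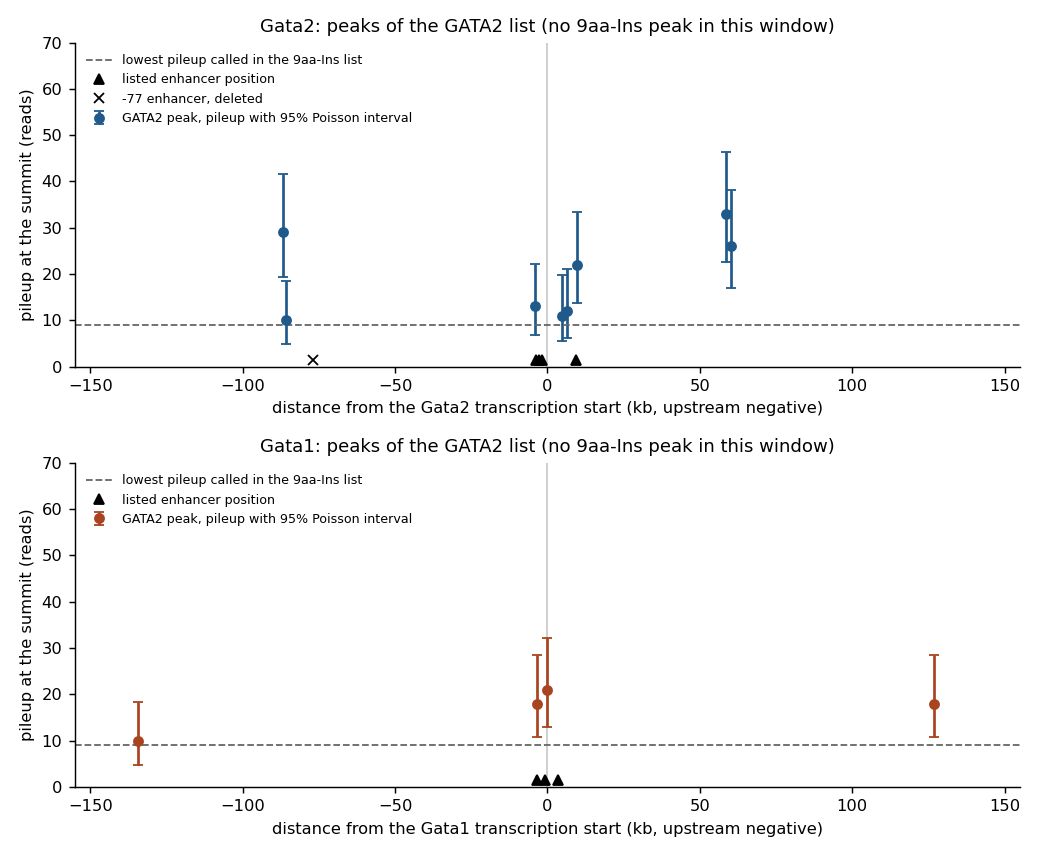
Pileup in reads at the summit of each GATA2 peak against its distance in kb from the transcription start of Gata2 (top) and of the hematopoietic Gata1 transcript (bottom), with exact 95% Poisson intervals as bars. Triangles mark listed enhancers, the cross the deleted -77 enhancer and the dashed line the lowest height listed with 9aa-Ins, 9 reads. The peaks at +58.6 kb and -86.9 kb of Gata2 are the highest, at 33 and 29 reads, and the Gata1 peaks reach 21 reads.

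The known enhancers of Gata2 that remained in these cells were occupied in part. The highest peak within the gene lay on +9.5, in an intron, and spanned 883 bp (chr6:88202940-88203822). It had 22 reads (95% interval 13.8 to 33.3), a fold enrichment of 15.7 and a −log10 q-value of 26.1, and it was higher than 80.7% of GATA2 peaks. Its summit lay 80 bp from the nominal +9.5 position. It held the E-box and WGATAR pair with a spacer of 8 bp (chr6:88203185-88203204), centered 276 bp from the summit, on the strand of the gene. A lower peak of 13 reads (6.92 to 22.2) spanned 328 bp at the -3.9 site (chr6:88189722-88190049), with the summit 225 bp from the nominal position, in an intron of the noncoding gene Gm38708. It held a pair of AGATAG motifs on opposite strands 38 and 59 bp from the summit. The intervals of these peaks overlapped, so that counting error did not separate their heights.

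No peak lay within 1 kb of the other upstream sites. The gap to the nearest peak, the one at -3.9 kb, was 1042 bp for -2.8 and 2042 bp for -1.8. The -77 position, deleted here, was 8.61 kb from the nearest peak. By this measure 2 of the 5 listed Gata2 elements, which include the deleted -77, had a GATA2 peak. The start of Gata2 itself had no promoter peak.

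At Gata1 the peaks nearest the gene lay on the regulatory DNA of the hematopoietic transcript. This transcript starts at chrX:7967910, 10.2 kb inside the annotated gene, whose outermost start belongs to an upstream noncoding first exon, and distances are given from the hematopoietic start. The peak at HS1 spanned 537 bp (chrX:7971138-7971674), with its summit 4 bp from the nominal -3.5 kb position, and had 18 reads (10.7 to 28.4), a fold enrichment of 13 and a −log10 q-value of 19.7. It held an E-box and an AGATAA motif with a spacer of 9 bp (chrX:7971487-7971507), with the motif 98 bp from the summit. The promoter peak spanned 762 bp (chrX:7967754-7968515) and had 21 reads (13 to 32.1), with its summit 106 bp upstream of the start. This peak was higher than 77.9% of GATA2 peaks.

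The promoter peak also held the adjoining GATA sites, AGATAA 534 bp and TGATAA 544 bp upstream of the start, on opposite strands and 428 and 437 bp from the summit. The nominal HS2 position at -0.7 kb was 95 bp outside its edge and 594 bp from its summit. HS3 had no peak within 1 kb, with a gap of 3344 bp. Thus 2 of the 3 listed Gata1 elements had a GATA2 peak, and the intervals of the HS1 and promoter heights overlapped.

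**Figure D2:**
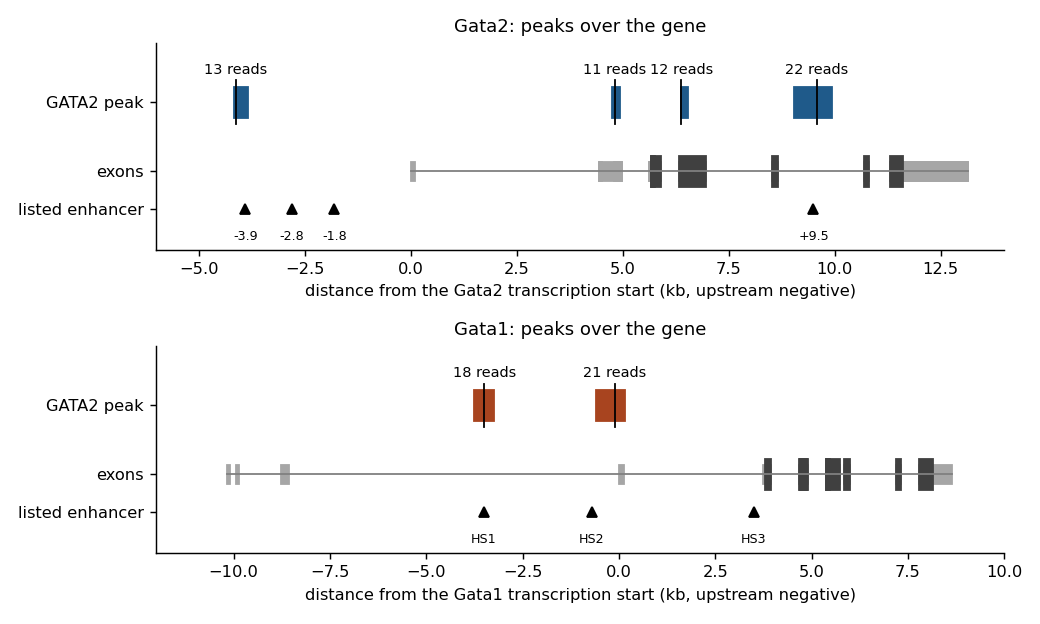
GATA2 peaks (bars, with a line at the summit and the pileup in reads), exons (light: untranslated, dark: coding) and listed enhancers (triangles) against distance in kb from the transcription start, for Gata2 (top) and Gata1 (bottom). Peaks of 22 and 13 reads lie at +9.5 and -3.9 of Gata2, peaks of 11 and 12 reads lie on Gata2 exons, and those of 18 and 21 reads lie at HS1 and the promoter of Gata1.

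Another pair of Gata2 peaks lay on exons. The retroviral Gata2 cDNA shares the coding exons with the locus, and reads from both align there. The peak at +6.38 kb (chr6:88200258-88200428) had 12 reads (6.2 to 21) and was the narrowest of the 12, at 171 bp. It lay wholly in coding exon 2 of 5 (chr6:88200219-88200860), and it covered 11.9% of the 1440 bp of coding sequence. The peak at +4.82 kb (chr6:88198645-88198837) had 11 reads (5.49 to 19.7) and lay in a 5′ untranslated exon of the shorter Gata2 transcripts. It held 0 bp of coding sequence. Neither exon peak held WGATAR anywhere in the peak. Their GC content around the summit was 65.2% and 76.1%, against a median of 58.2% in the GATA2 list. The peaks at -3.9 and -86.9 kb, which held WGATAR, had 68.2% and 65.7%. The 9aa-Ins retrovirus carries the same cDNA apart from the insertion, and 0 peaks of its list touched a Gata2 exon. Hoxb8, which is also carried by a retrovirus in these cells, had 0 peaks in either list. Both exon peaks were within counting error of 9 reads, the lowest height listed, so that their absence with 9aa-Ins was not measurable as a loss. The part of retroviral DNA in the exon peaks was not tested.

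Beyond the genes, the distal peaks of Gata2 came in pairs. Downstream, a peak at +58.6 kb (chr6:88251949-88252947) had 33 reads (22.7 to 46.3) and a fold enrichment of 23.2, and it ranked 278 in the GATA2 list. A peak at +60.2 kb (chr6:88253921-88254419) had 26 reads (17 to 38.1), 1.59 kb from the other, and held an E-box and TGATAA with a spacer of 7 bp. Both lay in an intron of Dnajb8, which encodes a DNAJ-type cochaperone and whose start was 30.3 and 31.8 kb away. Upstream, a peak at -86.9 kb (chr6:88106270-88107258) had 29 reads (19.4 to 41.6) and a fold enrichment of 20.5. A lower peak of 10 reads (4.8 to 18.4) lay 0.918 kb from it, at -86 kb (chr6:88107726-88108284).

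These upstream peaks were intergenic and lay 22.5 and 23.5 kb from the start of Rpn1, which encodes a subunit of the oligosaccharyltransferase of the endoplasmic reticulum. They lay 9872 and 8954 bp beyond the -77 position and so outside that element as listed. The peaks at +58.6, -86.9 and +60.2 kb were the highest at Gata2, above +9.5, but the intervals of all 3 overlapped that of +9.5. Peaks were linked to Gata2 by distance alone, and no listed value tied them to its transcription rather than to that of Dnajb8 or Rpn1.

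The distal peaks of Gata1 were closer to other genes. The peak at +127 kb (chrX:7841143-7841719) had 18 reads (10.7 to 28.4) and was a promoter peak of Otud5, which encodes a deubiquitinase, with its summit 0.139 kb from the start of that gene. The peak at -134 kb (chrX:8102327-8102506) had 10 reads (4.8 to 18.4) and lay 11.9 kb from the start of Was, which encodes an actin regulator of blood cells. It held TGATAA and AGATAA 86 and 102 bp from the summit. Promoter peaks were found at 2 of the 14 protein-coding starts in the Gata1 window, those of Gata1 and Otud5. In the Gata2 window they were found at 0 of 4, which were the starts of Rab7, Rpn1, Gata2 and Dnajb8. The share over all protein-coding starts was not computed. Of the 12 member peaks 2 were promoter peaks, against 50.4% of the GATA2 list.

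A WGATAR motif lying whole within 100 bp of the summit was present in 7 of the 12 peaks, 5 at Gata2 and 2 at Gata1. The AGATAA of HS1, whose distance of 98 bp is to its center, crossed the edge of this window and was not counted. In the GATA2 list 30.3% of peaks held WGATAR within 100 bp of the summit, as did 29.9% of windows of the same length 2 kb away. Within 50 bp of the summit 3 of the 12 peaks held the motif, and the share of the GATA2 list at this distance was not computed. Anywhere in the peak, WGATAR was present in 10 of 12, the exceptions being the Gata2 exon peaks, against 41.3% of the GATA2 list and 58.8% of its peaks outside promoters, to which 10 of the 12 members belonged. Of the 7 members that were 500 to 1000 bp wide 7 held WGATAR, against 55.5% of GATA2 peaks of that width. An E-box followed after 6 to 14 bp by WGATAR was present in 3 of 12 (+9.5, +60.2 kb and HS1), against 5.2% of the GATA2 list and 8.78% of its peaks outside promoters. Of the 7 members 500 to 1000 bp wide 2 held this pair, against 8.21% of GATA2 peaks of that width. A match to these letters is a description of the DNA and does not show that it was bound.

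**Figure D3:**
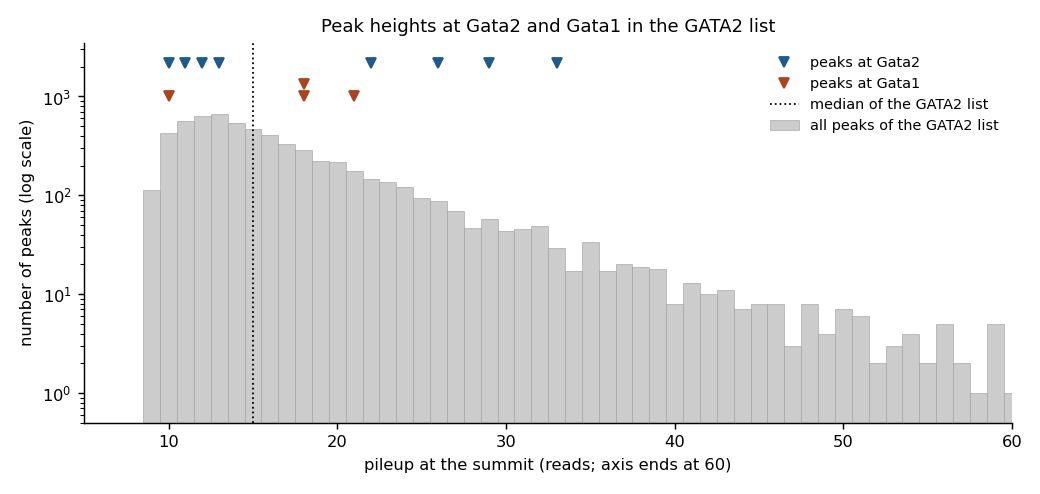
Number of GATA2 peaks (log scale) at each pileup in reads, with triangles for the 8 peaks at Gata2 and the 4 at Gata1 (triangles at the same pileup are stacked) and a dotted line at the list median of 15 reads. The axis ends at 60 reads although the list reaches 166. The members lie on both sides of the median, 7 of 12 above it, and none is above 33 reads.

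With 9aa-Ins, no site of either locus was listed. The nearest 9aa-Ins peak was 306 kb from Gata2 and 5.09 Mb from Gata1, although chromosome 6 held 40 and chromosome X held 6 peaks of that list. Of all protein-coding genes, 23.8% had a 9aa-Ins peak in reach. Among genes with at least 4 GATA2 peaks, as Gata1 had, 32.2% had no 9aa-Ins peak, and among those with at least 8, as Gata2 had, 10.3% had none. Of the member peaks 0 of 12 overlapped a 9aa-Ins peak, against 15.3% of the GATA2 list and 3.5% of its peaks that held WGATAR near the summit outside promoters. Only 6 of the 12 members, 5 at Gata2 and 1 at Gata1, were of the latter kind, and for these 0 is near the background.

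The share of GATA2 peaks that overlapped a 9aa-Ins peak was larger among higher peaks. Of GATA2 peaks with 9 to 12 reads 3% were shared, with 13 to 17 reads 9.67%, with 18 to 25 reads 24.6% and with 26 or more 46.5%. The members numbered 4, 1, 4 and 3 in these classes. Among peaks with WGATAR outside promoters, the shared percentages were 0.89, 1.49, 2.63 and 13. A 9aa-Ins site under the lowest listed height of 9 reads would not be in the list. In 7 of the 12 member peaks, 4 at Gata2 and 3 at Gata1, the lower bound of the GATA2 interval was above 9 reads. These included +9.5, HS1 and the Gata1 promoter. The limit of 9 reads was taken as fixed, without the counting error of a 9aa-Ins site, so loss was not tested at these 7 peaks. At the other 5, among them -3.9 and both exon peaks, the GATA2 height itself was within counting error of the lowest height listed, and loss with 9aa-Ins was not measurable at this depth.

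The other GATA genes, the cofactors and partners of GATA2 and a set of downstream regulators were examined in the same way. Of 21 such genes 19 had a GATA2 peak within 150 kb or in the gene (90.5%, against 60.1% of all genes), and 8 had a 9aa-Ins peak (38.1%, against 23.8%). Gata2 and Gata1 had more GATA2 peaks than the other family members, which act mainly outside the myeloid and erythroid lineages. Gata5 had 3 peaks of at most 15 reads, Gata3 had 1 of 13 reads, Gata4 had 1 of 11 reads and Gata6 had 0, and none of the 4 had a 9aa-Ins peak.

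The genes of this list with the most GATA2 peaks were Myb, a progenitor transcription factor, with 17, the GATA2 partner Lyl1 with 16, and with 11 each the GATA cofactor gene Zfpm1 (FOG1) and the corepressor gene Cbfa2t3 (ETO2). Each of these had 9aa-Ins peaks, 4 at Myb, 7 at Lyl1, 1 at Zfpm1 and 3 at Cbfa2t3. The others with 9aa-Ins peaks were Nfe2 with 4, the erythroid factor gene Klf1 with 2, Hhex with 2 and the ETS factor gene Fli1 with 1. Of the 15 genes with at least 4 GATA2 peaks, 7 had no 9aa-Ins peak, as was the case for Gata2 and Gata1, against 32.2% of all genes with as many. Named after their values were seen, these were Runx1, Gfi1 and Gfi1b with 7 GATA2 peaks each, Tal1, Erg and Spi1 with 5 each and Ldb1 with 4.

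**Figure D4:**
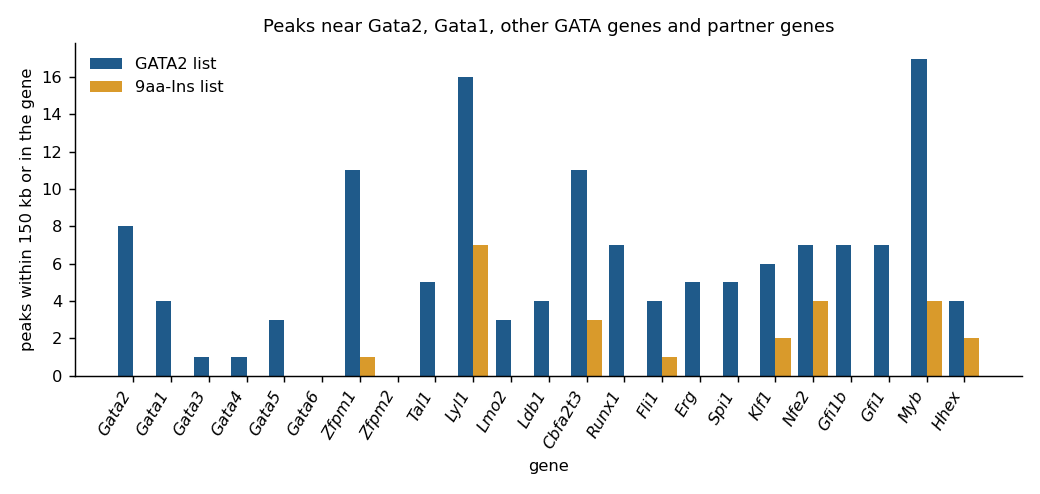
Number of peaks in the gene or within 150 kb of its start in the GATA2 list (blue) and the 9aa-Ins list (yellow) for Gata2, Gata1 and the 21 genes of the GATA family, cofactors, partners and downstream regulators. Gata2 has 8 and Gata1 4 GATA2 peaks with 0 9aa-Ins peaks, and Lyl1 has the most 9aa-Ins peaks, 7.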

How the data were processed

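CUT&Tag was described for 7 libraries. Of these, 3 were made with an antibody to GATA2 and are not analysed here. The authors aligned reads to mm10 with Bowtie2, discarded duplicated and blacklisted reads, called peaks with MACS3 at a q-value of 1e-06 and made tracks with deepTools. The CUT&Tag methods give no versions for these tools. Both lists are labelled as merged replicates. The methods of the study describe merging peaks called in replicates, but each list holds a single background, which was taken as 1 call on merged reads. The score that the authors deposited equals the −log10 q-value multiplied by 10 and cut to a whole number. Fold enrichment in the deposited lists is a ratio, with the pileup plus 1 above and the background plus 1 below. The authors' peak caller also wrote a −log10 p-value, a −log10 q-value and a summit position for each peak. All (100%) of the pileups recovered from the fold enrichment were whole within 0.01. Every column belonged to these lists, and 0 columns were left unused for lack of a sample.

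Genes were from GENCODE M21 and sequence from GRCm38, the assembly of mm10 (RefSeq copy). Promoters were taken as 2 kb before and 100 bp after the start of a protein-coding transcript. Peaks overlapping by at least 1 bp were shared. An enhancer had a peak when one lay within 1 kb of its nominal position, computed from its name. For Gata1, distances are from the start of the transcript that reaches the 3′ end of the gene, since its protein-coding transcripts each start at a different position and no start was the most frequent. WGATAR was searched on both strands in windows of 201 bp, and a motif had to lie whole in the window. The members, enhancers and gene lists were chosen with earlier results of these data known. The genes named are Gata2 and Gata1, the protein-coding genes nearest to their peaks, Hoxb8, and of the 21 family, partner and downstream genes those with a 9aa-Ins peak and those with the most GATA2 peaks. The other GATA family genes, Rab7, and the genes of that list with at least 4 GATA2 peaks and no 9aa-Ins peak fall outside this rule. They were named after their values were seen. Gm38708, a noncoding gene, also falls outside the rule and is named only as the place of the -3.9 peak. All 12 member peaks are described. Peak recovery and motif search were tested on simulated data. Tools were Python 3.11.15, pandas 2.3.3, SciPy 1.17.1 and matplotlib 3.10.9. Alternatives were other windows, q-values, overlaps, tolerances and motif distances. Depth was judged from the background, since total reads are not used here. Each list is 1 merged measurement, so that no comparison has a replicate check.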

Additional observations from a re-analysis of the deposited data

How the results depend on the processing

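Of 53 values recomputed under 13 alternative settings, 21 were counts of 0 for 9aa-Ins that no setting could change, since the nearest 9aa-Ins peak was 306 kb from a gene start and 219 kb from a member peak. Of the other 32, 29 stayed within 1.5 times the reported value and 3 did not. Gata1 had 2 GATA2 peaks instead of 4 within 100 kb, since the others lay at -134 and +127 kb. With a q-value of 1e-10 or lower, 1 Gata2 exon peak was left instead of 2. With the motif required within 50 bp of the summit, 3 of 12 peaks held WGATAR instead of 7, and with the motif anywhere in the peak 10 did. Within 2 kb instead of 1 kb, 3 listed Gata2 enhancers had a peak. Counting the Gata1 window from the hematopoietic start, an alternative chosen after the data were seen, gave the same number of peaks, 4. No paired analysis was possible because the peak lists used here combine the replicates of a construct, and for the same reason no replicate could be left out. Depth limits the low peaks most, since 5 of 12 member heights were within counting error of the lowest height listed.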
